A study of Mus musculus with 2 samples.

Results

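The miRNA genes described here lie together on mouse chromosome 2, inside an intron of Sfmbt2, and carry the family names Mir297, Mir466, Mir467 and Mir669. They were chosen by position: every listed miRNA gene on the plus strand between 10.37 and 10.60 Mb of build mm10, by the coordinates of GENCODE M21, whether or not it had reads. This gave 107 of the 1973 listed genes. The 5 Mir297, 20 Mir466, 14 Mir467 and 20 Mir669 genes were joined by 48 genes that carry only provisional Gm symbols. They spanned 52.99 kb (chr2:10465287-10518279). In the annotation, Sfmbt2 runs over chr2:10370510-10595253, and all 107 genes fall between exons 10 and 11 of a protein-coding transcript with 23 exons, an intron of 62.47 kb, with 0 of them touching an exon of any Sfmbt2 transcript. A further 12 miRNA genes that M21 places in this intron, among them most Mir669a copies, were not among the listed genes and are not analysed here.

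The data are 2 small RNA libraries from hearts of B6NCrl mouse embryos at embryonic day 16.5, with male and female embryos pooled, described as healthy and given as biological replicates. The heart tissue of replicate 2 came from 41 embryos, and replicate 1 is also a pool. No treatment, mutation or other stage is part of the series, so what can be asked is which of these miRNAs were present in fetal heart, at what level, and how far both pools agreed. The sense counts at miRNA genes summed to 6473482 in replicate 1 and 5841568 in replicate 2, and levels are given as CPM, counts scaled to a total of 1000000. A count of 0 allows up to 3 counts, or 0.463 CPM in replicate 1 and 0.514 CPM in replicate 2. Intervals and floors cover counting error only. The heart muscle markers Mir208a, Mir208b and Mir499 were all present, with means from 2594 to 58261 CPM, beside Mir126a of endothelium, Mir143 and Mir145a of smooth muscle and Mir451a and Mir144 of red cells (368 to 96423 CPM). A whole heart holds many cell types, and fewer cells of a type cannot be told apart from less RNA per cell.

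Sfmbt2 encodes a Polycomb group protein and is imprinted, being expressed from the paternal copy in extraembryonic tissue. Its miRNA cluster is an expansion found in rodents, built of many repeated hairpins, and it is known for its need in development of the placenta. A miRNA gene is copied into a hairpin, which is cut to a short mature strand, and the seed near the 5′ end of that strand pairs with target mRNAs. The miRNA miR-669a, which has copies in this intron, has been described in cardiac progenitors, where it restrains skeletal muscle differentiation.

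The character of these families can be seen in their relatives elsewhere in the genome. Of 10 listed Mir297, Mir466, Mir467 and Mir669 genes outside the intron, 8 have a mature strand in the RefSeq table (GRCm38.p6). They are shown 5′ to 3′, with the seed (bases 2 to 8) in capitals, because they show the runs of alternating bases that these families are built of.
mmu-miR-466i-3p (chr13:17747552-17747573, plus strand): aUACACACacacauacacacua
mmu-miR-466j (chr10:60960802-60960824, plus strand): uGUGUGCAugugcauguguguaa
mmu-miR-466k (chr3:85467396-85467418, plus strand): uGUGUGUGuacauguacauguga
mmu-miR-466q (chr3:28419988-28420007, plus strand): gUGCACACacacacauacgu
mmu-miR-467f (chr11:69635419-69635439, minus strand): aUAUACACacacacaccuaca
mmu-miR-467g (chr5:34732872-34732892, minus strand): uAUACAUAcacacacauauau
mmu-miR-467h (chr9:115381898-115381919, plus strand): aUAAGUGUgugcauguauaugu
mmu-miR-669n (chr3:115979905-115979924, plus strand): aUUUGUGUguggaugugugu

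All 8 seeds differ, so sharing a family name here did not mean sharing a seed. Of the 8 strands, 7 lay 1 edit (a substitution, insertion or deletion) from a stretch of some hairpin inside the Sfmbt2 intron, and 0 matched one whole. The strand of miR-467h was 1 edit from 2 members, Mir467c and Mir467e, that of miR-669n 1 edit from Mir669c, and that of miR-467g 1 edit from Mir669l and Mir467e. Of the 12 members 1 edit from miR-467f, 1 had 10 or more counts in each library (Mir467d). The strands of miR-466i-3p, miR-466j and miR-466k were 1 edit from 2, 10 and 8 members, and 0 of these had that many counts. The relatives outside the intron had almost no counts. Mir466q had 0 and 2 counts, and the other 9 genes, Mir297-1, Mir466f-4 and Mir669n among them, had 0 in both. The reads counted for the 4 families were thus almost all placed in the Sfmbt2 intron, 16837 counts there against 0 elsewhere in replicate 1 and 16026 against 2 in replicate 2.

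Among reads assigned to a single gene, the cluster as a whole was a small part, close in size in both pools. It held 16842 sense counts in replicate 1 and 16030 in replicate 2, or 0.260% (Wilson 95% interval 0.256 to 0.264) and 0.274% (0.270 to 0.279), a mean of 0.267% ± 0.010 (SD, n = 2). The intervals do not overlap, so both pools differed by more than counting error, by a small amount. On the opposite strand the 107 genes had 0 counts in either library. With 10 or more counts in each library taken as detected, 9 of 107 were detected (8.41%), against 18.5% of all 1973 listed genes. At least 1 count in either library was found for 24 genes (22.4%), against 36.7% of all listed genes, and 83 had none. Few of these genes were seen among reads assigned to a single gene, then, and the counts sat on very few of them. Reads with several matches and the 12 unlisted genes of this intron are not in these values. The share of the cluster in all its reads is therefore not known.

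The Mir467 family supplied most of the counts assigned to a single gene. Its 14 genes summed to 2155 CPM in replicate 1 and 2298 CPM in replicate 2, nearly all of it from Mir467c, Mir467d and Mir467e, which together held 82.8% and 83.7% of the cluster's counts. Mir467e (ENSMUSG00000076948.2, chr2:10505721-10505807) had 4896 and 4646 counts, or 756 and 795 CPM. Mir467d (ENSMUSG00000077021.2, chr2:10507630-10507714) had 4918 and 4425 counts, or 760 and 758 CPM. Mir467c (ENSMUSG00000077049.2, chr2:10473931-10474027) had 4134 and 4349 counts, or 639 and 744 CPM. These 3 genes stood at ranks 87, 89 and 92 of all listed genes by mean level, close to each other although Mir467c begins 103.4 kb and Mir467e 135.2 kb from the start of Sfmbt2. The leading gene was Mir467d in replicate 1 and Mir467e in replicate 2, and their values overlap. Mir467c was lower than both in each library, but its difference from Mir467d in the means (692 ± 74.9 against 759 ± 1.56 CPM, SD, n = 2) was smaller than the SD of Mir467c.

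The other 11 genes of the family had few counts or none. Mir467b had 3 and 0 counts and Mir467a-1 had 0 and 1. The remaining 9 copies of Mir467a had 0 in both libraries. Hairpins of Mir467e and Mir467d were 92.0% identical, with 7 edits between them, and each was 83.5% identical to Mir467c. The 9 Mir467a copies with 0 counts each had a hairpin identical to that of another member, and Mir467a-1 lay 2 edits from Mir467b.

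The Mir669 family came second, with 437 and 434 CPM in all. It had the most detected genes, 5 of 20, and these held 16.8% and 15.8% of the cluster's counts. Mir669o (ENSMUSG00000077086.1, chr2:10514300-10514395) had 1464 and 1290 counts, or 226 and 221 CPM. Mir669l (ENSMUSG00000076959.1, chr2:10468971-10469068) had 803 and 687 counts, or 124 and 118 CPM. Mir669c (ENSMUSG00000076118.1, chr2:10509296-10509404) had 487 and 492 counts, or 75.2 and 84.2 CPM. These levels fell into clear steps: the libraries of Mir669o, Mir669l and Mir669c did not overlap, with ratios of 1.85 and 1.52 between neighbours in the order of means. Mir669e (61 and 53 counts, 9.42 and 9.07 CPM) and Mir669h (10 and 13 counts, 1.54 and 2.23 CPM) were much lower. Mir669h sat at the detection limit, and its Wilson intervals ran from 0.839 to 2.84 CPM in replicate 1 and from 1.30 to 3.81 CPM in replicate 2. Of the Mir669a copies that were listed (Mir669a-1, Mir669a-2 and Mir669a-3), each had 0 counts in both libraries. Every 20-base stretch of the Mir669a-1 and Mir669a-2 hairpins also occurs in another miRNA hairpin, and 28.9% of those of Mir669a-3 do not. Reads with several matches were counted in no gene, so these 0 counts do not show that miR-669a was absent.

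Mir466, the family with as many genes as Mir669, had few reads assigned to a single gene. All 20 genes summed to 46 and 51 counts, and Mir466n (ENSMUSG00000077991.1, chr2:10513741-10513834) supplied 37 and 47 of them, or 5.72 and 8.05 CPM. It was the only Mir466 gene detected. The others reached at most 4 counts in a library, and 14 had none. Every 20-base stretch of the hairpins from Mir466b-4 to Mir466b-8 and of Mir466c-2 also occurs in another miRNA hairpin. Mir466b-1, Mir466e and Mir466c-1 were not listed. Low counts therefore do not show that Mir466 miRNAs were scarce. Of the 5 Mir297 genes, Mir297a-2 had 7 and 16 counts, just outside the limit for detection, Mir297b had 3 and 0, and 3 had none. The 48 Gm genes had 5 and 4 counts in all, spread over 4 genes, and 0 were detected. Across families, 15 genes had counts but fewer than the limit: 5 had reads in both libraries, 8 in replicate 1 alone and 2 in replicate 2 alone, and 14 of them never passed 4 counts. At that depth, presence in one pool and absence from the other was not distinguishable.

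**Figure D1:**
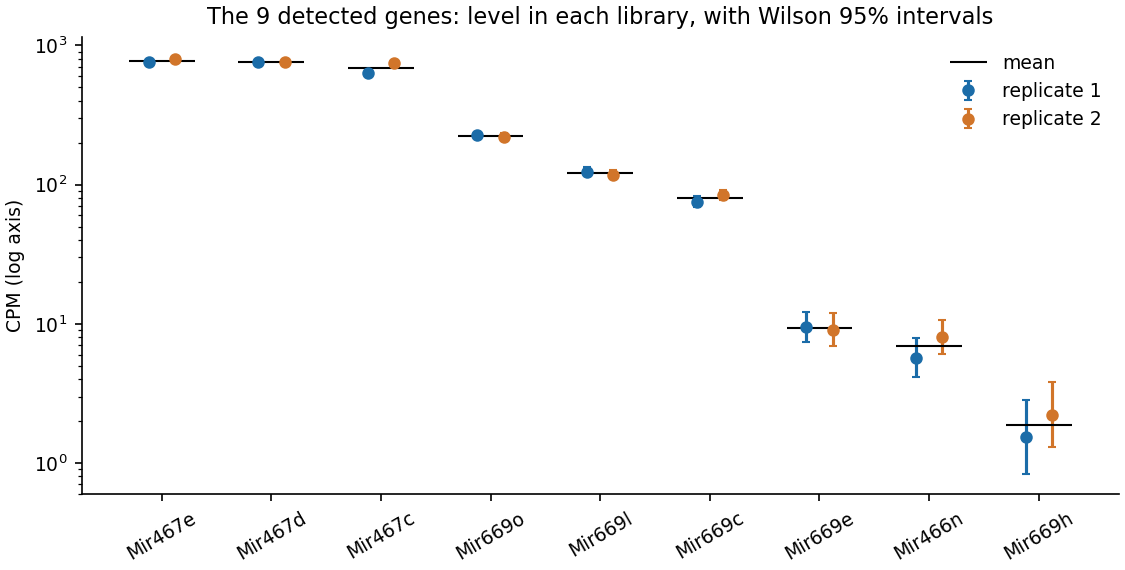
Level of the 9 detected genes in each library, in CPM on a log axis. Points are libraries, bars are Wilson 95% intervals of counting error, and the black line is the mean; 3 Mir467 genes lie between 639 and 795 CPM, 3 Mir669 genes between 75.2 and 226 CPM, and Mir669e, Mir466n and Mir669h below 10 CPM.

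In the order of mean level the genes thus ran Mir467e, Mir467d, Mir467c, Mir669o, Mir669l, Mir669c, Mir669e, Mir466n and Mir669h. This order ranks only reads assigned to a single gene, and how much of a hairpin is distinct from others differed between these genes. Whether the order of all their reads is the same was not tested. Only Mir467e and Mir467d overlapped between neighbours when the values of both libraries are compared, while counting intervals within a library also overlapped for Mir669e and Mir466n in both libraries and for Mir467d and Mir467c in replicate 2. A mature strand is read whole, so counts were not divided by length. Divided by hairpin length instead, a check added after seeing the data, 7 of the 9 genes kept their place and Mir467d (892.5 CPM per 100 bases) and Mir467e (891.8 CPM per 100 bases) exchanged theirs. The 6 highest genes held 99.2% and 99.1% of the cluster's counts, and the 98 genes that were not detected held 32 and 28 counts together.

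The reads were placed unevenly along the intron. Between Mir467c and Mir467e, the stretch bounded by those genes after their levels were seen, lay 60 of the 107 genes over 30.34 kb, and they had 5 counts in replicate 1 and 1 in replicate 2. The 17 genes up to and including Mir467c had 5011 and 5108 counts with 3 detected, and the 30 genes from Mir467e on had 11826 and 10921 counts with 6 detected. All 9 detected genes therefore stood on either side of a middle stretch with few counts, which holds the listed copies of Mir467a and Mir466b. The 10 Mir467a copies recur with a median spacing of 2462 bases between starts (2413 to 4880), and 1 of them had a count.

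**Figure D2:**
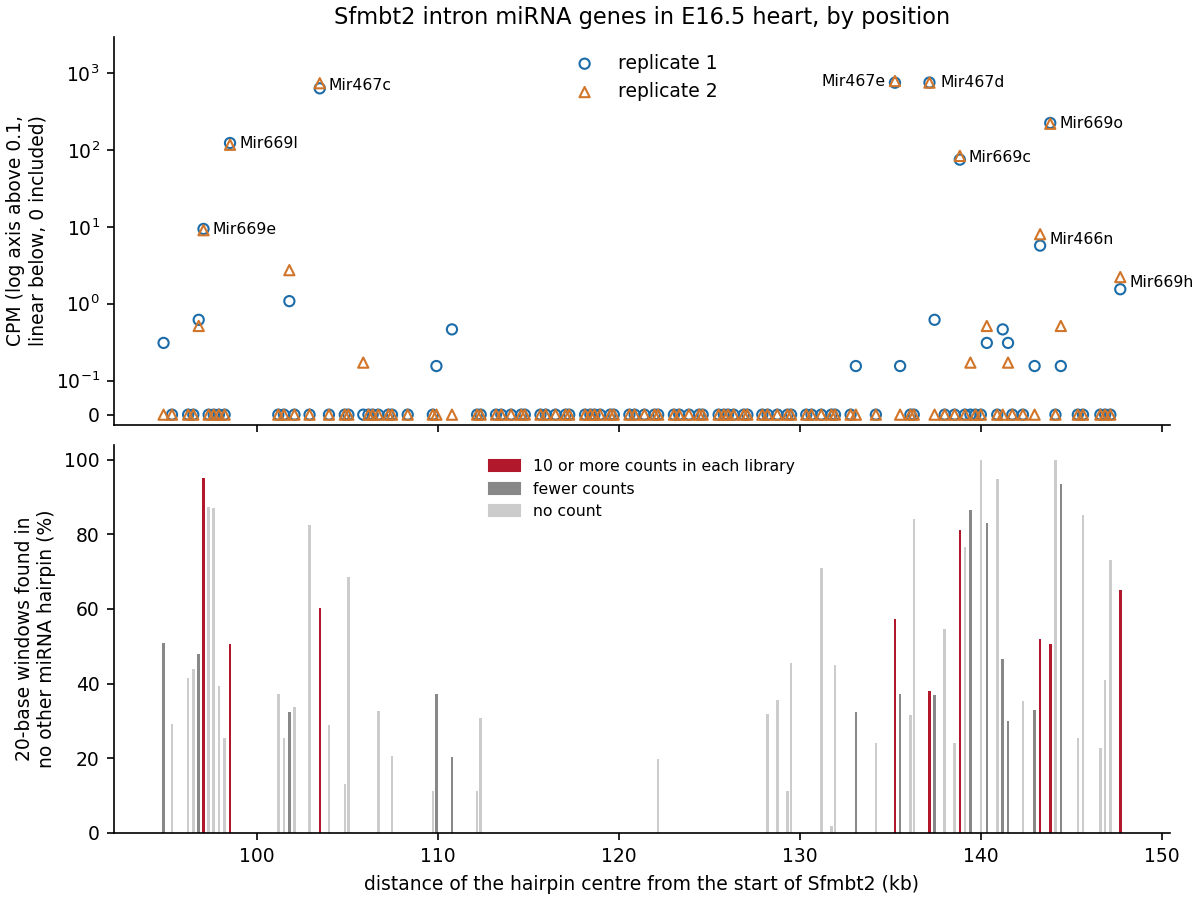
Upper panel: level of each of the 107 genes in both libraries (CPM, log axis above 0.1 and linear below) against the distance of its hairpin from the start of Sfmbt2 in kb. Lower panel: percent of the 20-base windows of each hairpin that occur in no other miRNA hairpin, coloured by counts; the 60 genes between Mir467c and Mir467e held 5 and 1 counts, and 40 of them had no window of their own.

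Whether a read can be assigned to a single gene depends on whether the stretch it covers also occurs elsewhere. Of the 107 genes, 0 had an entry in the RefSeq table, so mature strands could not be compared. Distinct sequence was taken over the whole hairpin instead, which includes bases outside the mature strand. The deposited tables assign no gene to reads with several matches, 29.5% of all reads in replicate 1 and 31.9% in replicate 2, and how many came from this cluster cannot be read from the tables. Each hairpin was therefore cut into all its 20-base windows, and the windows were looked up on both strands of every other miRNA hairpin of GENCODE M21. Of the 107 genes, 105 shared at least 1 window with another hairpin and 42 (39.3%) had no window of their own, while 38 had a hairpin identical to that of another member. Among the other 1787 listed genes with a hairpin, 216 (12.1%) had no window of their own.

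The detected genes were the more distinct ones, as counted from reads with a single match only. Their share of windows found in no other hairpin ran from 37.9% for Mir467d to 95% for Mir669e, with a median of 57.4%. The values were 60.3% for Mir467c, 57.4% for Mir467e, 81.1% for Mir669c, 65.1% for Mir669h, 52.0% for Mir466n and 50.6% for both Mir669l and Mir669o. For the 83 genes without a count the median was 1.85%. Of the 42 genes with no window of their own, 0 were detected and 1 had a count, a single read at Mir467a-1. Reads with several matches were counted in no gene, so the counting rule leaves such genes almost without counts. Their 0 detected is therefore no measure of level. Of the 40 genes with up to 50% distinct windows, 1 was detected (Mir467d), and of the 25 with more than 50%, 8 were. These 2 counts turn on where the windows are set: with windows of 18 bases, 4 of 45 and 5 of 20 were detected, since Mir669l, Mir669o and Mir466n lie close to 50%. The group with no window of their own held 42 genes and 0 detected at 18, 20 and 22 bases, where the same counting rule applies. With 20 bases the share detected above 50%, 32.0%, stands beside 27.0% (354 of 1313) of the other listed genes with more than 50% distinct windows. Among the other listed genes with up to 50%, 2 of 216 with no distinct window and 0 of 258 with some were detected.

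**Figure D3:**
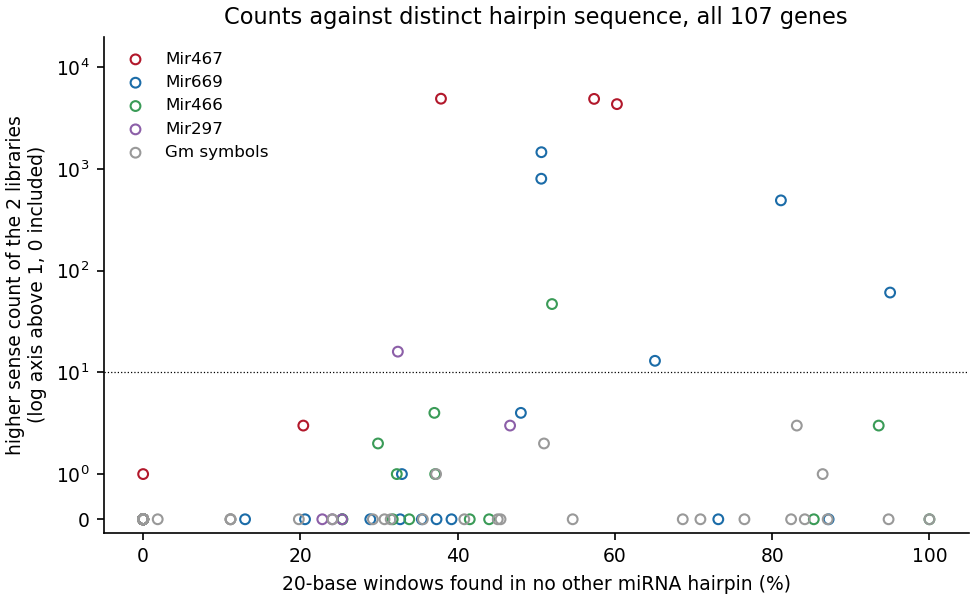
Higher sense count of both libraries (log axis above 1, with 0 included) against the percent of 20-base windows found in no other miRNA hairpin, for all 107 genes coloured by family. The dotted line marks 10 counts; every gene above it in both libraries had at least 37.9% distinct windows (Mir297a-2 was above it in replicate 2 alone), and 17 genes with more than 50% stayed below it.

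A distinct hairpin did not by itself go with reads. Mir466g and Gm22239 shared no window with any other miRNA hairpin and had 0 counts in both libraries, which allows up to 0.463 and 0.514 CPM. Mir669b (87.2% distinct), Mir466l (85.3%) and Mir669i (73.1%) also had 0 counts, and Mir466h (93.5%) had 1 and 3. In all, 17 genes had more than 50% distinct windows and were not detected. A read within any of the 38 hairpins identical to another member's matches several places, so it was counted in no gene. How many reads of the 42 genes without a window of their own went uncounted is not known. Whether windows recur in the genome outside miRNA hairpins was not tested.

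Base composition of the hairpins was alike in detected genes and in those without a count, while distance to the nearest other member was not. Median GC content was 39.4% for the 9 detected genes and 38.1% for the 83 without a count. Steps of CA, AC, TG or GT made up a median of 48.8% and 48.3% of neighbouring base pairs in these groups. The nearest other member lay a median of 16 edits away for detected genes (7 to 35) and 1 edit for those without a count (0 to 36). Reads within identical hairpins were counted in no gene, so this difference is not a measure of level.

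Another imprinted miRNA cluster looked different on these measures. The 51 listed genes of the Dlk1-Dio3 region from Mir770 to Mir410 on chromosome 12 had 41 detected, held 3.06% ± 0.087 (SD, n = 2) of sense counts, and had a median of 100% distinct windows and a median GC content of 48.6%. The Sfmbt2 genes had a median of 25.3% distinct windows and 38.3% GC. Genes are not replicates, so these values carry no test.

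Between both pools the 9 detected genes differed little, as did most detected miRNA genes. Each gene was compared by a two-sided exact binomial test on its counts given the library sizes scaled by TMM, with p-values adjusted over all 365 detected genes, and called at an adjusted p under 0.05 with at least a 2-fold difference. This compares 2 libraries and not conditions. Of the 9 genes, 0 were called, against 3.29% of all detected genes. Unadjusted, 3 of the 9 had p under 0.05 in the exact binomial test. After adjustment, 2 of the 9 did, against 169 of all 365 detected genes. All 9 lay within 1.5-fold, as did 86.6% of all detected genes and all 41 of the Dlk1-Dio3 region, where 0 were called. With only 9 genes, the counts called and within 1.5-fold cannot be told apart from the shares over all detected genes.

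Without the minimum fold, 2 genes were higher in replicate 2 and 0 lower, against 26.0% of all detected genes higher and 20.3% lower. Mir467c was 1.19-fold higher in replicate 2, a log2 ratio of 0.25 (exact 95% interval 0.19 to 0.31, adjusted p = 1.98e-14, exact binomial test). Mir467e was 1.07-fold higher, a log2 ratio of 0.098 (0.040 to 0.16, adjusted p = 0.00248, exact binomial test). These small p-values come with large counts and rest on counting error alone. With edgeR's negative binomial exact test at a common coefficient of variation of 17.6% between pools, 0 of the 9 passed. All 9 had an adjusted p of 1 in this test, while 5 of 365 detected genes had an adjusted p under 0.05. Unadjusted, 0 of the 9 had p under 0.05 in it. That coefficient came from the same 2 libraries taken as a single group, so the differences under test were also counted as spread. This test therefore cannot decide whether Mir467c or Mir467e differed between pools. Mir467d, the neighbour of Mir467e, had a log2 ratio of 0.021 (-0.038 to 0.080), which was below 0 under other scalings.

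Of the other genes, Mir669c had a log2 ratio of 0.19 (0.0047 to 0.37), Mir669o of -0.0088 (-0.12 to 0.10) and Mir669l of -0.051 (-0.20 to 0.097). The thinly counted Mir669h and Mir466n had the largest ratios, 0.54 (-0.75 to 1.90) and 0.51 (-0.13 to 1.18), and their intervals include 0, as does that of Mir669e at -0.027 (-0.59 to 0.53). The median over the 9 genes was 0.098, beside 0.018 over all detected genes. As shares of the cluster's counts, Mir467e held 29.1% in replicate 1 and 29.0% in replicate 2, while Mir467c held 24.5% and 27.1% and Mir467d 29.2% and 27.6%.

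**Figure D4:**
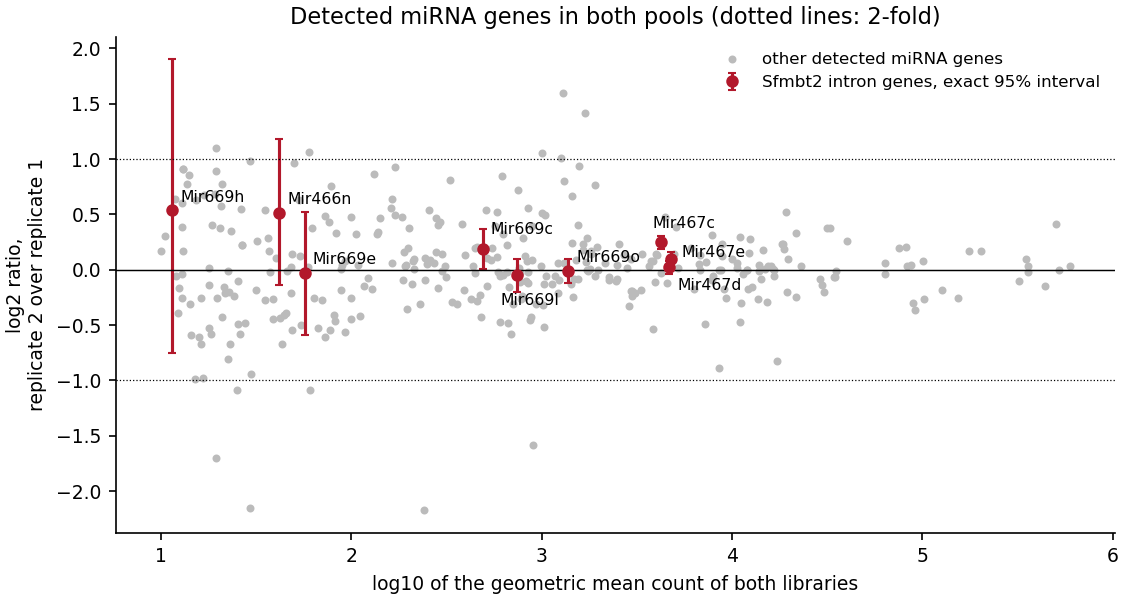
Log2 ratio of replicate 2 over replicate 1 against the log10 geometric mean count, for 365 detected miRNA genes. Red points are the 9 genes of the Sfmbt2 intron with exact 95% intervals; all lie inside the dotted 2-fold lines, from -0.051 for Mir669l to 0.54 for Mir669h.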

How the data were processed

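Small RNA of E16.5 mouse heart was sequenced in 2 libraries. The authors deposited raw counts per miRNA gene, in columns for either strand and for each strand, and the files that came with them name mm10 and annotation M4. Aligner, counter and trimming are not given in the sources used here. Of both strand columns, the one with more reads at genes was used as sense. Lines for unmapped reads (22.4% and 17.2% of reads), reads matching several places (29.5% and 31.9%), reads outside genes (2.99% and 2.66%) and ambiguous reads (0) name no gene and stayed out of totals.

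Positions, symbols and hairpins came from GENCODE M21, matched on the identifier; 79 listed genes had no match, with at most 3 counts in a library. With a single group, no quasi-likelihood test could be run, so libraries were compared by exact binomial tests with Benjamini-Hochberg adjustment after TMM scaling in edgeR 4.0.16 (R 4.3.3), and log2 ratios had 0.5 added to each count. The test was checked on simulated counts with counting error alone, which cannot show how it behaves when pools also differ. Edits between hairpins were counted with edlib 1.3.9.post1 in Python 3.11.15. The planned count of distinct mature strands was made on hairpin windows instead. Genes named were the detected members, the 10 highest, those called, and the 5 highest relatives elsewhere; further names were chosen after their values were seen. Members and lists were chosen with earlier results of these data known. Alternatives were other detection limits, strand columns, denominators, scalings including DESeq2 1.42.0, no count filter, no minimum fold, other window lengths and leaving out each replicate. The exact binomial p-values allow for chance in counting and include no further spread between pools. Those of the negative binomial test used a spread estimated from both libraries. Neither kind extends to other pools.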

Additional observations from a re-analysis of the deposited data

How the results depend on the processing

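With at least 1 count in each library as the limit, 14 genes were detected in place of 9; limits of 5 or 50 counts, a summed limit of 20 and the unstranded column gave 7 to 10. The cluster's mean share of 0.267% became 0.252% with the unstranded column, 0.190% without Mir467e and 0.118% of all reads, and stood at 0.260% without replicate 2 and 0.274% without replicate 1. Without a minimum fold, 2 members passed in place of 0, and other scalings, no count filter, the unstranded column and the negative binomial test gave 0. The median log2 ratio of 0.098 became 0.073 with total-count scaling, 0.064 with DESeq2 size factors and -0.018 with no count filter, which adds members with few counts. Of 36 recomputed ratios of single members, 34 kept their direction and call, and Mir467d turned to -0.0042 with total-count scaling and -0.013 with DESeq2 size factors. Windows of 18 or 22 bases left the number of genes with a window of their own at 65. No paired analysis was possible because the series has a single group. Depth limits what can be said of the 83 genes without a count, and so does their sequence, with a median of 1.85% distinct windows. Reads with several matches were counted in no gene, and how many came from these genes is not known.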
